A study of Mus musculus with 18 samples.

Results

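The regions described here are stretches of mouse chromatin that lay in a Lamin B domain in embryonic stem cells (ESC) and in cardiomyocytes derived from them (CM), and that had an H3K9me2 domain in CM but none in ESC. They were found on a 1 kb grid of chromosomes 1 to 19 as unbroken stretches of at least 20 kb that met all 4 conditions. There were 428 of them, among 6705 stretches of at least 20 kb that hold any single combination of the 4 domain lists. Sequence in a Lamin B domain of both cell types is called constant lamina sequence below. A stretch is called filled because the CM list has a domain there and the ESC list has none, so the word describes a difference between called domains and not a measured change in signal.

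The nuclear lamina is a protein mesh under the inner nuclear membrane, and Lamin B is one of its building proteins. Chromatin that touches it forms long lamina-associated domains, which are mostly poor in genes and weakly transcribed. H3K9me2, the dimethylated form of lysine 9 of histone H3, is written by methyltransferases of the EHMT family and is a usual mark of such peripheral chromatin. In many cell types it forms broad domains that overlap lamina domains.

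The series has 18 ChIP-seq libraries. Lamin B and H3K9me2 were each precipitated in 2 libraries from wild-type ESC, grown in a serum-free 2i medium, and in 2 libraries from wild-type CM, collected on day 10 of directed differentiation from embryoid bodies. A line labelled CMV-creERT; Hdac3f/f carries floxed alleles of the histone deacetylase gene Hdac3 and a Cre, under the CMV promoter, that tamoxifen switches on. Untreated cells of this line gave 2 libraries for Lamin B and 2 for H3K9me2, and cells given 1 µg/ml tamoxifen for 24 h to delete Hdac3 gave 2 for Lamin B. This line was kept on feeder cells in serum with LIF, unlike the wild-type ESC. The 4 cell states had 1 input library each. The CM were analysed as whole cultures, and the share of cells that had become cardiomyocytes could not be read from domain lists.

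The values are 4 lists of enriched domains, 1 for each cell type and antibody, with no value per library. Both CM lists are named by 2 wild-type libraries. In the labels, 4 libraries point to the list for H3K9me2 in ESC, 2 of them wild-type and 2 of the floxed Hdac3 line. For Lamin B in ESC, 6 libraries do so, of which 2 are wild-type, 2 floxed and 2 deleted for Hdac3. The sources used here do not say how the libraries were joined, so ESC may stand for wild-type cells or for a mixture of lines and culture media. Spread between replicates and sequencing depth are unknown, no test between cell types could be made, and all values below are descriptions. Coordinates are on mm9. Genes and base sequences of the regions were not analysed here, because the gene and promoter tables used here are on GRCm38.

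The filled stretches came to 36.4 Mb, or 3.70% of the 983 Mb of constant lamina sequence. At any length, CM H3K9me2 without ESC H3K9me2 took 3.89% of the 1 kb bins of constant lamina sequence and 5.76% of all bins of the 19 chromosomes, so its share at the constant lamina was below that of the chromosomes as a whole. Constant lamina sequence was already marked over most of its length, with 93.5% (919 Mb) in H3K9me2 domains of both cell types. What remained without ESC H3K9me2 was 56.1 Mb, and CM H3K9me2 covered 68.2% of it. Of the sequence without Lamin B in either cell type, 1130 Mb had no ESC H3K9me2, and CM H3K9me2 covered 6.20% of that. The share was 65.8% where Lamin B was found in CM alone and 17.3% where it was found in ESC alone.

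Most filled stretches were short. Their lengths ran from 20 kb to 680 kb with a median of 50 kb and quartiles of 30 kb and 100 kb. The 112 stretches of at least 100 kb held 61.3% of the sequence, and the 43 of at least 200 kb held 35.6%. Lengths clustered on the grid of the ESC H3K9me2 list, whose domain edges lie on multiples of 10 kb, and 346 of 428 lengths were whole multiples of 10 kb. At the limit of the rule, 64 stretches measured 20 kb and 2 measured 21 kb, while 1 measured 19 kb and 1 measured 18 kb. In all, 247 stretches fell below the limit and held 1.86 Mb, and 104 of these measured 10 kb.

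**Figure D1:**
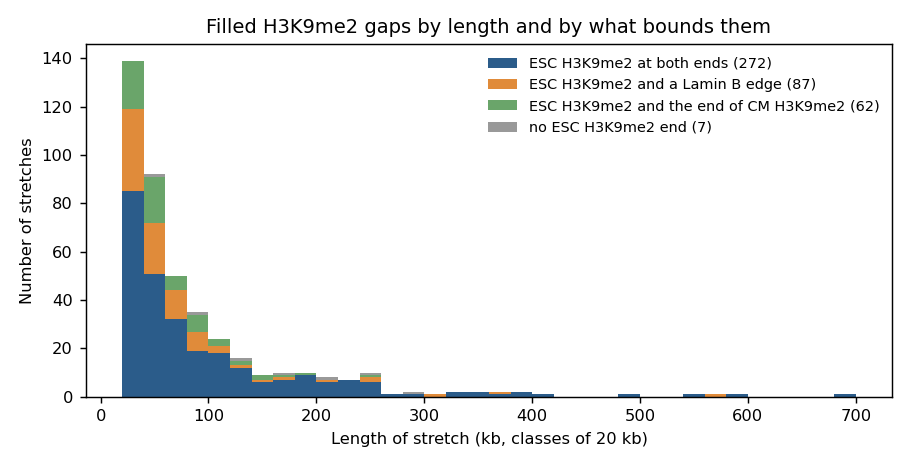
Number of filled stretches (vertical axis) by length in classes of 20 kb (horizontal axis), coloured by what lies at their ends. Most of the 428 stretches are under 100 kb, and the 272 with ESC H3K9me2 at both ends make up the largest part of nearly every class up to the longest stretch of 680 kb.

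The typical filled stretch was a break inside ESC H3K9me2 that a longer CM domain spanned. ESC H3K9me2 lay directly at both ends of 272 of the 428 stretches (63.6%, Wilson 95% interval 58.9 to 68.0, counting error only), which held 25.1 Mb and had a median length of 55 kb. A further 87 stretches (20.3%) had ESC H3K9me2 on one side and a Lamin B edge on the other, with a median of 47 kb. At 62 stretches (14.5%) ESC H3K9me2 lay on one side and the CM H3K9me2 domain ended on the other while the lamina domain went on, so that CM H3K9me2 reached beyond the ESC H3K9me2 domain but ended within constant lamina sequence, in some cases a few kb from a Lamin B edge. These extensions had a median length of 50 kb and were at most 250 kb long.

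Only 7 stretches had no ESC H3K9me2 at either end. The longest of them was chr16:43140001-43434000, 294 kb in an ESC Lamin B domain of 540 kb, where the CM H3K9me2 domain of 360 kb met no ESC H3K9me2 domain at all. Another, chr6:58620001-58780000, was a CM H3K9me2 domain of 160 kb that stood free within an ESC Lamin B domain of 13761 kb. At chr3:3033001-3249000 the filled stretch was a whole ESC Lamin B domain of 216 kb, which lay inside a CM Lamin B domain of 5445 kb and a CM H3K9me2 domain of 5500 kb. These 3 were picked from the 7 after their values were seen.

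Where a filled stretch ended at a Lamin B edge, it was mostly the edge of the ESC domain. Of all 856 sides, 761 lay inside constant lamina sequence and 73 met an edge where ESC Lamin B stopped while CM Lamin B went on and CM H3K9me2 went on without ESC H3K9me2. At those sides both CM marks went on beyond the stretch, as read from the next 1 kb bin only. The distance differed, with CM Lamin B going on for 3 kb at chr3:14688001-14720000 and for 330 kb at chr5:15444001-15820000. It was not counted over all 73 sides, and the bins of the ESC and CM Lamin B lists are unequal. ESC Lamin B went on beyond CM Lamin B at 14 sides with CM H3K9me2 alone beyond and at 4 with no H3K9me2 beyond. At the remaining sides neither cell type had Lamin B beyond, with CM H3K9me2 alone at 3 and no H3K9me2 at 1.

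Counted by sides, the ESC H3K9me2 domains beside the breaks were not shorter than the whole ESC list, which is not limited to the lamina. The 693 sides of filled stretches that met ESC H3K9me2 belonged to 521 domains. The domain at these sides had a median length of 180 kb, against 140 kb for all 2431 ESC domains of these chromosomes. Among ESC domains with at least 50% of their length in constant lamina sequence, those beside filled stretches were more often short. Below 100 kb there were 119 of these and 70 others, and from 100 kb to below 300 kb 181 and 137. From 300 kb to below 1000 kb there were 114 and 158. Longer classes had 70 and 95 below 3000 kb, and 33 and 50 from 3000 kb. For the 272 stretches with ESC H3K9me2 at both ends, the shorter of the neighbouring domains had a median length of 100 kb and the longer one 510 kb, values that the sorting of each pair sets apart. In 130 of these pairs the shorter neighbour was under 100 kb, in 74 the break was longer than its shorter neighbour, and in 4 both neighbours were at least 1 Mb long. Breaks also followed each other, and 172 ESC H3K9me2 domains had a filled stretch directly on each side. These domains ranged from 40 kb to 11120 kb with a median of 150 kb, and 52 were under 100 kb.

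Whole breaks of ESC H3K9me2 show what became of each in the CM list, independently of how a break is cut into stretches. Between successive ESC H3K9me2 domains, 437 gaps of 10 kb or more lay wholly in constant lamina sequence. CM H3K9me2 covered 347 of them entirely (79.4%, Wilson 95% interval 75.4 to 82.9), covered 43 in part and left 47 open. Over all 2412 gaps of the 19 chromosomes, 35.4% were covered entirely. With gaps of at least 20 kb, it was 272 of 354 at the constant lamina (76.8%, 72.2 to 80.9), which are the 272 stretches with ESC H3K9me2 at both ends, against 30.6% of 2180 gaps overall. Among the 1176 gaps wholly outside Lamin B in both cell types it was 265 (22.5%, 20.2 to 25.0). The gaps outside Lamin B were also longer, with a median of 170 kb against 50 kb, so they were compared within classes of length.

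Within each class of length, gaps at the constant lamina were covered entirely more often than gaps outside Lamin B. For gaps of 10 kb the counts were 75 of 83 (90.4%) at the constant lamina and 65 of 89 (73.0%) outside. From 20 kb to below 40 kb they were 85 of 100 (85.0%) and 72 of 138 (52.2%). From 40 kb to below 70 kb they were 63 of 83 (75.9%) and 54 of 139 (38.8%). The separation was wider among longer gaps. Between 70 kb and 120 kb, 57 of 70 (81.4%) were covered at the constant lamina and 46 of 141 (32.6%) outside. Between 120 kb and 200 kb it was 34 of 44 (77.3%) against 18 of 107 (16.8%). At 200 kb or more it was 33 of 57 (57.9%) against 10 of 562 (1.78%), but in this class the gaps outside were longer, with a median of 680 kb against 290 kb.

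**Figure D2:**
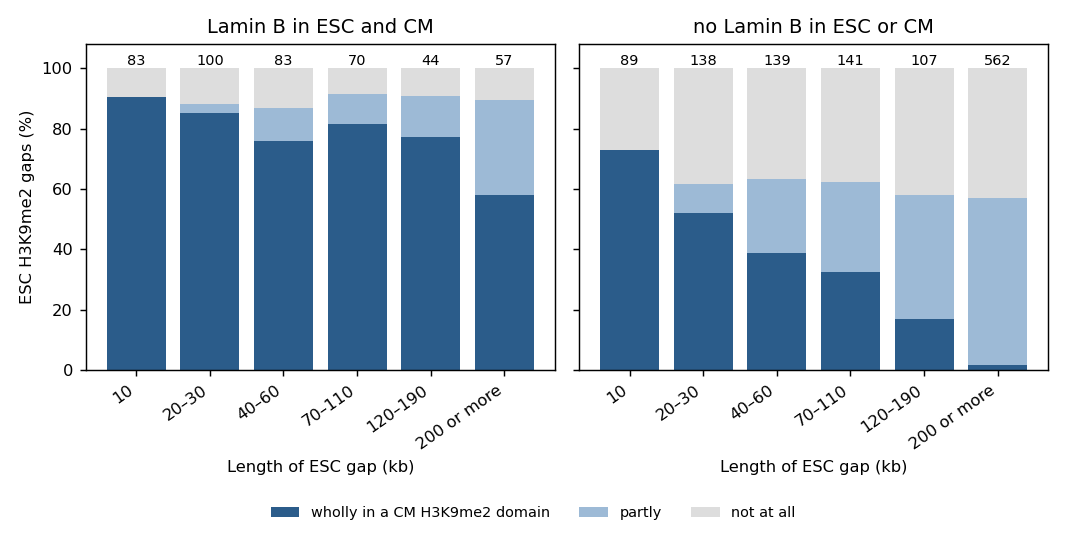
Share of ESC H3K9me2 gaps (vertical axis, percent) that lie wholly, partly or not at all in a CM H3K9me2 domain, by gap length in kb (horizontal axis), for gaps wholly in constant lamina sequence (left) and gaps without Lamin B in either cell type (right). Numbers above the bars are gaps per class, and the wholly covered share goes from 90.4% to 57.9% on the left and from 73.0% to 1.78% on the right.

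The share was high where Lamin B lay in CM alone and low where it lay in ESC alone. Of 110 gaps wholly in CM-only Lamin B, CM H3K9me2 covered 92 entirely (83.6%, Wilson 95% interval 75.6 to 89.4), and of 26 in ESC-only Lamin B it covered 5 (19.2%, 8.51 to 37.9). Lamin B and H3K9me2 were measured in cells of the same kind but called as separate lists, and whether the 2 CM lists share a source of error was not tested.

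The opposite change was rarer in constant lamina sequence. CM H3K9me2 had 69 gaps wholly within it, and ESC H3K9me2 covered 11 of them entirely (15.9%, 9.14 to 26.3). Outside Lamin B in both cell types it covered 6 of 634 CM gaps (0.946%), which were longer, with a median of 540 kb against 120 kb. In CM-only Lamin B it covered 0 of 18 and in ESC-only Lamin B 2 of 11. Of gaps spanning several Lamin B states, it covered 1 of 389. By the same 20 kb rule, 83 stretches had ESC H3K9me2 without CM H3K9me2, 7.06 Mb in all with a longest of 240 kb, against 428 stretches and 36.4 Mb in the filled direction. A further 158 stretches (17.2 Mb, the longest 590 kb) had no H3K9me2 domain in either cell type. The smallest CM H3K9me2 domain on these chromosomes was 40 kb and its bins 20 kb wide, compared with 20 kb and 10 kb in ESC, so the CM list could show no gap of 10 kb. Of the filled stretches, 43 contained no complete bin of the CM list. They measured at most 26 kb and held 0.879 Mb, while the other 385 held 35.5 Mb. How far the unequal bins enter these counts, for short or for longer stretches, cannot be told apart from a difference between cell types.

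The 47 gaps without any CM H3K9me2 had the same median length, 40 kb, as the 347 that were covered, and the 43 covered in part were longer, with a median of 130 kb. The open gaps reached 490 kb, at chr4:21590001-22080000, 5489 kb inside constant lamina sequence. Next came chr7:99700001-100120000 (420 kb) and chr15:41430001-41810000 (380 kb). Distance from the edge did not order the outcome in one direction. The entirely covered share was 75.4% of 61 gaps within 100 kb of an edge of constant lamina sequence, 86.3% of 146 gaps from 100 kb to 500 kb, 74.1% of 108 gaps from 500 kb to 2000 kb and 77.9% of 122 gaps farther in.

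The longest filled stretch, chr9:3860001-4540000, measured 680 kb. It lay 323 kb inside the ESC Lamin B domain chr9:3537001-13167000, between ESC H3K9me2 domains of 280 kb and 250 kb. The CM H3K9me2 domain that spanned it, chr9:3540001-7100000, took in 6 ESC H3K9me2 domains. The next, chr1:107380001-107970000 (590 kb), lay 11377 kb from the edge of an ESC Lamin B domain of 24183 kb. Its ESC H3K9me2 neighbours measured 120 kb and 70 kb, each shorter than the break itself, and a single CM H3K9me2 domain of 24200 kb covered the region.

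Stretch chr3:138924001-139490000 (566 kb) differed from these, since it began at the edge of its ESC Lamin B domain and only its right side met ESC H3K9me2, a domain of 2440 kb. The ESC gap that held it was 2300 kb long, so CM H3K9me2 covered the lamina side of a much larger unmarked interval. Stretch chr5:15444001-15820000 (376 kb) also began at an ESC Lamin B edge, with an ESC H3K9me2 domain of 4190 kb on its right side, and lay in an ESC gap of 540 kb. The remaining 6 of the 10 longest were breaks with ESC H3K9me2 at both ends. They were chr10:27690001-28240000 (550 kb), chr2:65610001-66100000 (490 kb), chr14:99420001-99820000 (400 kb), chr13:15480001-15860000 (380 kb), chr14:103380001-103760000 (380 kb) and chr14:105790001-106150000 (360 kb). That on chromosome 10 lay between ESC H3K9me2 domains of 970 kb and 480 kb, and that on chromosome 2 between domains of 200 kb and 140 kb.

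Filled stretches gathered in part of the lamina domains. Of 708 ESC Lamin B domains on these chromosomes, 207 (29.2%) held at least 1, and 132 held a single one. The 18 domains with 5 or more held 156 of the 428 stretches. Domains with a filled stretch were longer, with a median of 1053 kb against 369 kb for the others, as longer domains have more room. Per length the counts were highest in short domains. ESC Lamin B domains under 500 kb held 7.74 stretches per 10 Mb, and those from 500 kb to 1000 kb held 5.48. Those from 1000 kb to 3000 kb held 4.39, those from 3000 kb to 6000 kb 3.11 and those of 6000 kb or more 3.64. As a share of domain sequence these classes were closer, at 4.33%, 3.49%, 3.14%, 2.96% and 4.05%. Domains under 500 kb had more unmarked constant sequence than the longer classes, 12.1% against 5.87%, 4.22%, 4.00% and 6.21%. CM H3K9me2 covered less of it, 47.5% against 69.3%, 80.2%, 77.3% and 67.8%.

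The ESC Lamin B domain with the most, chr13:74781001-90972000, held 19 filled stretches of 20 kb to 210 kb that came to 1.53 Mb. ESC H3K9me2 lay in 22 domains there and covered 84.4% of the sequence, and CM H3K9me2 lay in 4 domains and covered 93.6%. Of the 19 stretches, 15 had ESC H3K9me2 at both ends. The unmarked constant sequence of this domain, 2.06 Mb, was covered to 75.5% in CM.

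**Figure D3:**
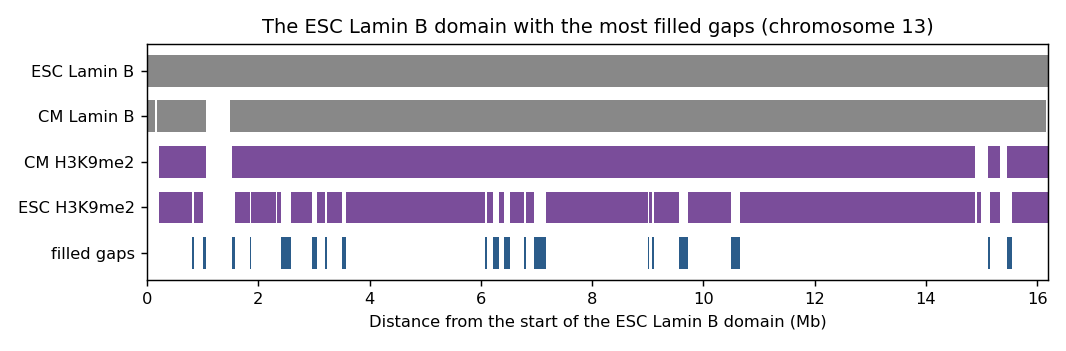
Domains of the 4 lists and the filled gaps within the ESC Lamin B domain that holds most of them, on chromosome 13, by distance in Mb from the start of that domain (horizontal axis). Each bar is a called domain, and 15 of the 19 filled gaps lie between ESC H3K9me2 domains, while the others end at a Lamin B edge or at the end of a CM H3K9me2 domain.

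The next 2 domains were filled completely. The ESC Lamin B domain chr14:80676001-118179000 held 16 stretches that came to 2.61 Mb, all between 99420001 and 106380000. They crowded into 6.96 Mb of a domain of 37503 kb. ESC H3K9me2 was a single domain of 19160 kb up to the first of them and 16 others followed, whereas CM H3K9me2 was a single domain of 38000 kb across the region. All 2.61 Mb of unmarked constant sequence there lay in CM H3K9me2. The ESC Lamin B domain chr6:8910001-28071000 held 15 stretches of 20 kb to 340 kb with a median of 130 kb, spread over 12.9 Mb. It had 21 ESC H3K9me2 domains where CM had 1 of 19600 kb, and all 2.27 Mb of its unmarked constant sequence was covered in CM.

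The 428 stretches lay in 227 CM H3K9me2 domains with a median length of 1200 kb, each meeting a median of 2 ESC H3K9me2 domains and holding filled sequence over a median of 7.38% of its length. A domain that spans a break meets at least 2 ESC domains by construction. At the level of stretches, the CM domain around a filled stretch had a median length of 2340 kb and took in a median of 3 ESC H3K9me2 domains, and at most 23.

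Filled sequence had a larger share near the ESC edges than sequence marked in both cell types, and a higher upper quartile of the distance. Filled sequence here is that of stretches of at least 20 kb, while the other states were taken at any length. Of the filled sequence, 19.5% lay within 100 kb of an edge of its ESC Lamin B domain. For the constant lamina sequence with H3K9me2 in both cell types it was 10.6%. The shares were 29.0% for sequence with no H3K9me2 domain in either cell type and 47.9% for sequence with ESC H3K9me2 alone. At least 1 Mb from an ESC edge lay 45.7% of the filled sequence and 45.7% of the sequence marked in both. The upper quartiles of the distance were 3190 kb and 2210 kb. Closer than 10000 kb lay 89.7% of the filled sequence and 98.0% of the sequence marked in both. Filled sequence farther in lay only in ESC Lamin B domains of 37503 kb (chromosome 14) and 24183 kb (chromosome 1). The upper quartile without these domains was not computed. Measured from the edges of CM Lamin B domains, 12.8% of the filled sequence and 8.40% of the sequence marked in both lay within 100 kb, and 50.3% and 47.7% at least 1 Mb away, with medians of 1014 kb and 922 kb. Counted by stretches, 139 of the 428 lay within 100 kb of an ESC Lamin B edge and 146 at least 1000 kb away, with a median of 338 kb. The farthest, at 18359 kb, was the stretch at the end of the long ESC H3K9me2 domain of chromosome 14. These shares follow from the domain lists alone, and neighbouring bins are not independent.

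**Figure D4:**
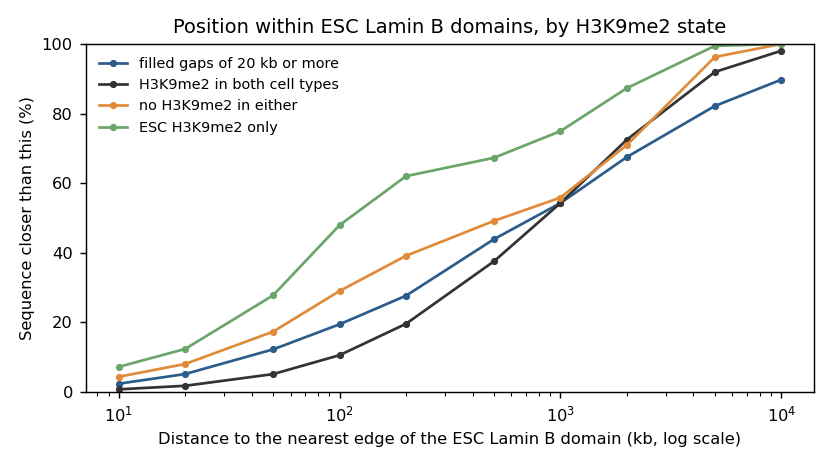
Share of sequence (vertical axis, percent) that lies closer to an edge of its ESC Lamin B domain than the distance on the horizontal axis (kb, log scale), for 4 H3K9me2 states of constant lamina sequence. Filled gaps are those of 20 kb or more, and the other states are taken at any length. Within 100 kb of an edge lie 19.5% of the filled gaps, 10.6% of sequence marked in both cell types, 29.0% of sequence marked in neither and 47.9% of sequence marked in ESC alone.

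Some neighbouring filled stretches lay close to each other. The 409 successive pairs on a chromosome had a median of 830 kb between them, and 66 of these lay within 100 kb. Of all 409, 221 shared an ESC Lamin B domain, with a median of 180 kb, where the shared domain itself limits the distance. In windows of 5 Mb, 182 of the 409 windows with constant lamina sequence had filled sequence, and 29 windows held 50% of it. The window with most, chr14:100000001-105000000, held 1420 kb, followed by chr1:105000001-110000000 with 1120 kb. Both windows lay wholly in constant lamina sequence.

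Chromosomes differed in how much constant lamina sequence was filled. The share was highest on chromosome 13, at 7.96% (38 stretches, 3.47 Mb), then 6.44% on chromosome 14, 6.21% on chromosome 9 and 5.82% on chromosome 16. It was lowest on chromosome 8, at 1.07% (12 stretches, 0.542 Mb), then 1.18% on chromosome 11 and 1.25% on chromosome 17. The median over 19 chromosomes was 3.07%. Part of this order lay in the room available, since 11.1% of constant lamina sequence on chromosome 13 and 2.10% on chromosome 8 had no ESC H3K9me2. As a share of that room, CM H3K9me2 covered 99.97% on chromosome 14, 84.0% on chromosome 6, 75.2% on chromosome 13 and 56.3% on chromosome 8. It covered 38.4% on chromosome 11, the lowest value. Chromosomes 8 and 11 were those where H3K9me2 covered less in CM than in ESC, at 53.0% against 54.4% and 38.2% against 40.2% of the chromosome. On chromosomes 17, 12, 15 and 2 the filled share of the room was also below that of chromosome 8, at 41.4%, 49.3%, 51.2% and 53.4%. There H3K9me2 covered more of the chromosome in CM than in ESC.

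**Figure D5:**
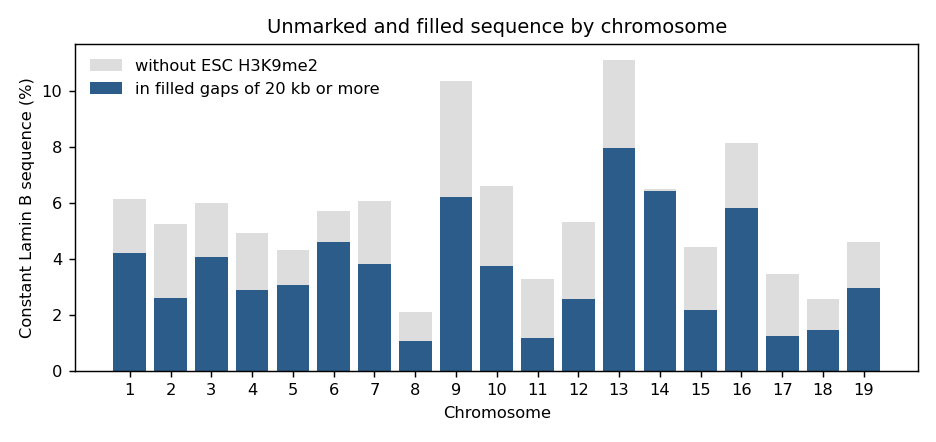
Share of constant lamina sequence (vertical axis, percent) on each of 19 chromosomes (horizontal axis) without ESC H3K9me2 (grey, full height) and in filled gaps of 20 kb or more (blue). The filled share is highest on chromosome 13, at 7.96%, and lowest on chromosome 8, at 1.07%, and on chromosome 14 nearly all unmarked sequence is filled.

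The ESC H3K9me2 domains beside filled stretches had lower scores for their length than other ESC H3K9me2 domains with at least 50% of their length in constant lamina sequence. The score is the authors' own value per domain, whose scale the sources used here do not state, and it was used within a list only. It grows with domain length, so it was divided by length and compared in classes. Among domains from 100 kb to below 300 kb, the median score per 100 kb was 3.22 for the 181 beside a filled stretch and 3.55 for 137 others. From 300 kb to below 1000 kb it was 3.18 for 114 domains and 3.61 for 158 others. At 1000 kb to below 3000 kb it was 3.33 for 70 domains and 3.87 for 95 others. The medians below 100 kb, 3.37 and 3.88, and from 3000 kb, 3.36 and 3.72, had the same order. The quartiles overlapped in every class, from 2.58 to 3.84 against 2.88 to 4.32 in the first class given.

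Domains beside covered gaps also scored lower than those beside open gaps, here pooled over domain lengths. They were counted by gap sides, so a domain with a gap on each side entered more than once. For the 347 gaps of constant lamina sequence that CM H3K9me2 covered entirely, the neighbouring ESC domains had a median score per 100 kb of 3.23 (quartiles 2.65 and 3.87), against 3.71 (3.09 and 4.22) beside the 47 open gaps and 3.51 (3.00 and 4.30) beside the 43 partly covered ones. In the CM list, the 133 H3K9me2 domains of at least 1000 kb that held filled stretches had a median of 2.69 per 100 kb (2.24 and 3.08). For 163 others of that size with at least 20 kb in constant lamina sequence it was 3.07 (2.59 and 3.30). Median lengths were 2360 kb and 2200 kb. The scores come without replicates or depth, and whether sequencing depth moved with them was not tested.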

How the data were processed

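ChIP-seq reads of the 18 libraries were handled with STAR, Picard and deepTools, and placed on build mm9, per the submitters' processing notes, without versions. The deposited files are 4 domain lists, and their track headers name the settings g 10, bin auto and fdr 5. Which program called the domains is not stated in the sources used here. The score of each domain is the authors' own deposited value, with no stated scale. Domains of chromosome 1 reach 197180000. Edges lay on bins of 9 kb (ESC Lamin B), 11 kb (CM Lamin B), 10 kb (ESC H3K9me2) and 20 kb (CM H3K9me2).

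Domains were placed on a 1 kb grid in Python 3.11.15 with numpy 2.4.6 and pandas 2.3.3. Wilson intervals at 95% came from scipy 1.17.1 and cover counting error only. They treat regions as independent, or 1 kb bins for the share of sequence that CM H3K9me2 covers. Figures used matplotlib 3.10.9. A domain counted as holding a region when it contained all of it. The regions named were the 10 longest, the 3 ESC Lamin B domains with most of them and those at the length limit. Other named regions were chosen after their values were seen. The rule for the regions, and the comparisons made, were chosen with earlier results of these data known, and the rule uses the lists described, so no test was made. In simulated lists, 120 planted filled gaps were all found with the same ends. Their Lamin B domains had the same edges in both cell types, unlike the real lists, so this checks the code only. Alternatives varied the minimum length, grid, score, domain edges and merging. Libraries enter only through the lists, so depth and replicate spread are unknown. The separate Hdac3 values, inputs and the sex chromosomes were not analysed here.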

Additional observations from a re-analysis of the deposited data

How the results depend on the processing

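The values were recomputed with other minimum lengths, grids, scores, domain edges and merging, and, chosen after seeing the data, without chromosome 14. The shares of whole gaps were also added after seeing the data. Of 61 recomputed values, 42 stayed near the reported ones. Near meant inside the Wilson interval of the reported value for a share, and within a set ratio for a count, total or median. For the share of constant lamina sequence that interval counted 1 kb bins and ran from 67.8% to 68.6%. Neighbouring bins are not independent, so it is narrow, and 6 of 7 alternatives for that share fell outside it. Merging ESC H3K9me2 across gaps under 20 kb cannot change stretches or gaps of 20 kb or more. Its values for these were therefore fixed in advance, and the 42 include them. With a minimum length of 100 kb there were 112 stretches of 22.3 Mb with a median of 170 kb, and 75.9% had ESC H3K9me2 at both ends. A minimum of 40 kb gave a median of 80 kb. Domains at or above the median score of their list gave 273 stretches with a median of 90 kb, and 55.3% had ESC H3K9me2 at both ends. That share was 57.8% on a common 20 kb grid and 54.7% after merging ESC H3K9me2 across gaps under 40 kb. CM H3K9me2 covered 68.2% of constant lamina sequence without ESC H3K9me2, and 66.2% on the 20 kb grid, 71.4% with the score limit, 65.1% with ESC H3K9me2 extended by 10 kb at each end, 68.8% with Lamin B trimmed by 10 kb, 67.0% after merging and 66.0% without chromosome 14. Of ESC gaps of 20 kb or more, 76.8% at the constant lamina and 18.4% outside Lamin B were covered entirely. The first ranged from 73.6% to 76.8% over 7 alternatives. The second was 15.4% with the score limit, 13.5% with extended ESC H3K9me2 and 13.5% after merging. The minimum length removes short stretches by construction. Merging across gaps under 40 kb likewise closes the 85 covered constant lamina gaps from 20 kb to below 40 kb, and extension closes gaps up to 20 kb. Scores grow with domain length, so the score limit tends to drop short domains. How far the shifts go beyond such built-in effects was not tested. No paired analysis was possible because the lists hold no value of any single library, and for the same reason no replicate could be left out. Alternatives for sequence features were not run, since no genome of mm9 was used. Depth is unknown, so a gap in the ESC list may mark weak coverage as well as missing H3K9me2.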
